A study of Homo sapiens with 12 samples.

Results

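The BCL2 family of apoptosis regulators was followed at the RNA level in T47D breast cancer cells through 10 genes, chosen by their symbols in the count table: BCL2, BCL2L1, MCL1, BAX, BAK1, BBC3, PMAIP1, BCL2L11, BIK and BAD. All 10 were present, each in a single row, among 25370 genes. T47D is an established luminal, estrogen receptor-positive breast cancer line. RNA was sequenced from 12 libraries in 4 groups of 3, lettered a, b and c: vehicle, anastrozole (10 nM), E2 (17β-estradiol, 0.1 nM), and both together at these doses, called anastrozole plus E2 or the combination. Anastrozole is an aromatase inhibitor that lowers estrogen synthesis, and the study asked whether it acts on transcripts in the way that E2 does. Before treatment, all groups were kept for 48 h in medium with 5% charcoal-stripped serum and then for 24 h without serum. The sample labels give 12 h of treatment, while the published methods give a longer time. The paper describes its gene expression data, and the figure that includes this RNA sequencing, as coming from independent experiments, while the labels of these libraries do not say what the same letter shares or that each was a separate culture. Where they were not, p-values measure only the spread between libraries, which may be technical.

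BCL2 family proteins decide whether the outer mitochondrial membrane is opened to release cytochrome c, the step that commits a cell to intrinsic apoptosis. Antiapoptotic members (BCL2, BCL-XL from BCL2L1, and MCL1) hold the pore-forming effectors BAX and BAK in check, and BH3-only proteins such as PUMA (from BBC3), NOXA (from PMAIP1), BIM (from BCL2L11), BIK and BAD bind the antiapoptotic members or activate the effectors. In estrogen receptor-positive breast cancer, BCL2 is known as an estrogen-responsive gene, and MCL1 and BCL-XL are known survival proteins.

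Between 9914253 reads (anastrozole b) and 17009776 reads (E2 b) were counted on genes per library. Levels are given as normalized CPM, scaled by edgeR's TMM method. A count of 3 reads, taken as the floor, corresponded to 0.177 to 0.303 CPM. The chi-square per degree of freedom between replicates was 1.28 (anastrozole plus E2 b and c) to 4.83 (anastrozole a and c), where sampling alone gives about 1. The label of a luminal line was checked with 8 luminal markers (ESR1, PGR, GATA3, FOXA1, KRT8, KRT18, KRT19 and EPCAM), whose summed level was 9224 to 10274 CPM per library. The luminal sum was 10149 to 10274 CPM in vehicle and lower in every treated library, at most 10072 CPM (anastrozole plus E2 b). Of 4 basal and myoepithelial markers the sum was 9.79 to 14.4 CPM, mostly ACTA2, with KRT5 at 0 to 1 read. The basal sum was 9.79 to 11.9 CPM in vehicle and 10.8 to 13.6 CPM in anastrozole. In E2 (12.5 to 13.8 CPM) and anastrozole plus E2 (12.8 to 14.4 CPM) it lay above every vehicle library. The fibroblast sum of 80.2 to 100.01 CPM came from COL1A1, with COL1A2, COL3A1 and DCN at 0 to 2 reads. In E2 that sum (80.2 to 90.9 CPM) lay below every vehicle library (91.7 to 95.7 CPM). The origin of these shifts in marker sums was not tested. Of the immune markers, PTPRC was at 0 to 3 and CD3E at 0 to 2 reads. In bulk RNA, fewer cells that express a gene and less of its RNA per cell cannot be told apart.

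Levels of different genes were compared per kilobase of annotated exon. MCL1 was the most abundant of the 10 genes, with a median of 53.2 CPM per kilobase over the 12 libraries, and BCL2L1 came next at 51.1; their ranges overlapped. BAD followed at 27.4, then BAK1, then BAX at 6.57 CPM per kilobase, each with a range apart from its neighbours. The median levels per kilobase of BIK (3.87), PMAIP1 (3.19), BBC3 (2.83) and BCL2L11 (2.46) formed a run in which neighbours overlapped. BCL2 came last, at 1 to 9 reads per library, around the floor, and its highest library (0.0422 CPM per kilobase) was below the lowest of BCL2L11 (2.14). In vehicle alone the order of the leading pair was the other way round, with group medians of 55.1 for BCL2L1 and 48.4 for MCL1, both in CPM per kilobase.

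**Figure D1:**
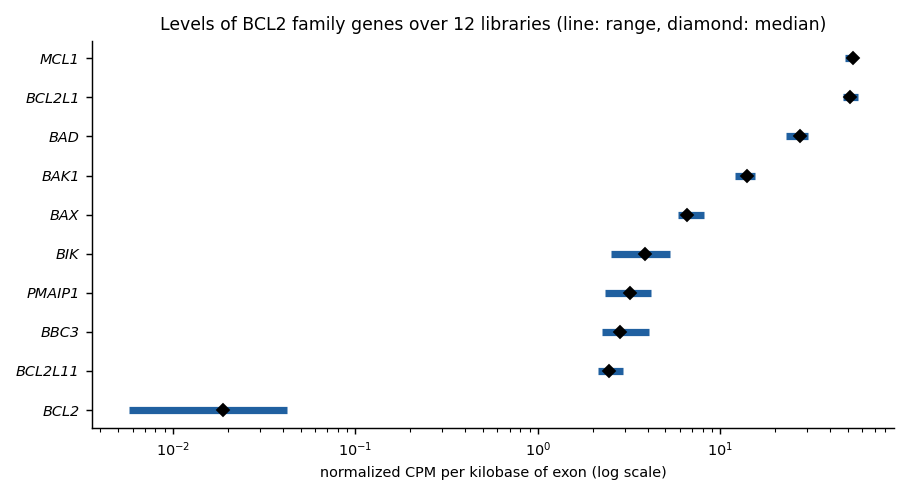
Normalized CPM per kilobase of exon for each of the 10 genes on a log scale, with the range over 12 libraries as a line and the median as a diamond. MCL1 (median 53.2) and BCL2L1 (51.1) lie at the top, and BCL2 (0.0189, from reads around the floor) lies below the other 9 genes.

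Against vehicle, BCL2L1 fell and MCL1 rose in anastrozole and in E2, PMAIP1 rose in E2, and BBC3 rose in anastrozole plus E2. Calls are at an adjusted p under 0.05 in edgeR over 21132 genes. In anastrozole against vehicle 2 of 10 members were called, where 3.67% of all genes tested were called. That share is 776 genes, and without vehicle a, vehicle c, anastrozole a or anastrozole b it was 287, 191, 246 or 301 genes, and 1651 without anastrozole c. In E2 against vehicle it was 3 of 10 members, against 12.0% of all genes. In anastrozole plus E2 against vehicle it was 1 of 10 members, against 5.04% of all genes (1065, and 682 or 686 without anastrozole plus E2 b or c). Removing the GC trend took the genes called in these comparisons from 776, 2537 and 1065 to 613, 1587 and 1284. DESeq2 called 238, 1433 and 463 genes, of 6928, 9713 and 15284 that it tested. With limma-voom 15, 1379 and 347 of 21132 genes were called. These counts share the vehicle libraries. The median log2 fold change of the members was 0.0075, 0.030 and 0.061 in these comparisons, and that of all genes tested was 0 in each. The 24 member values that were not called against vehicle lay between -0.43 and 0.51 on the log2 scale, with BCL2, at 1 to 9 reads per library, at both ends.

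Between pairs of treatments, edgeR called 0 or 1 of the 10 members. Anastrozole against E2 called 0 of 10 members in edgeR, also 0 at an unadjusted p under 0.05 and 0 in DESeq2 and in limma-voom, where edgeR called 1.33% of all genes. Anastrozole plus E2 against E2 called 1 of 10, BCL2L1, where 6.74% of all genes were called. Anastrozole plus E2 against anastrozole called 0 of 10 in edgeR, 0 in DESeq2 and 0 in limma-voom, with 1 at an unadjusted p under 0.05 and 2.90% of all genes called. Genes to which DESeq2 gave no adjusted p were counted as not called. Its 0 here and in anastrozole against E2 therefore need not cover all 10 members. The interaction of anastrozole and E2, which asks whether the effect of anastrozole differs with and without E2, called 2 of 10, BCL2L1 and MCL1, where 10.9% of all genes were called. Removing the GC trend changed the share of all genes: 488 instead of 280 of 21132 genes were called in anastrozole against E2, 193 instead of 1424 in anastrozole plus E2 against E2, 429 instead of 612 in anastrozole plus E2 against anastrozole, and 565 instead of 2295 for the interaction. In the same order, DESeq2 called 107, 647, 236 and 1587 genes, of 12460, 6606, 4612 and 9659 that it tested. With limma-voom 70, 451, 90 and 1539 of 21132 genes were called. Leaving out anastrozole b, E2 a, E2 b or E2 c took the 280 genes of anastrozole against E2 to 134, 177, 107 or 124, and leaving out E2 c or anastrozole plus E2 c took the 1424 of anastrozole plus E2 against E2 to 885 or 935. The 612 genes of anastrozole plus E2 against anastrozole became 1706 without anastrozole c and 234 to 348 without any other of the 6 libraries.

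Fold changes followed the GC content of genes in several comparisons. Across 10860 genes, which are not independent replicates, Spearman's rho between log2 fold change and exon GC content was -0.53 in anastrozole against vehicle, -0.55 in E2 against vehicle and -0.026 in anastrozole plus E2 against vehicle. It was 0.11 in anastrozole against E2, 0.68 in anastrozole plus E2 against E2, 0.57 in anastrozole plus E2 against anastrozole and 0.71 for the interaction. The 10 members span exon GC contents from 40.0% (PMAIP1) to 64.7% (BAD), with BCL2L1 at 57.8% and MCL1 at 45.5%. Values with each library's GC trend removed are therefore given beside the calls. The origin of the trend was not tested.

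**Figure D2:**
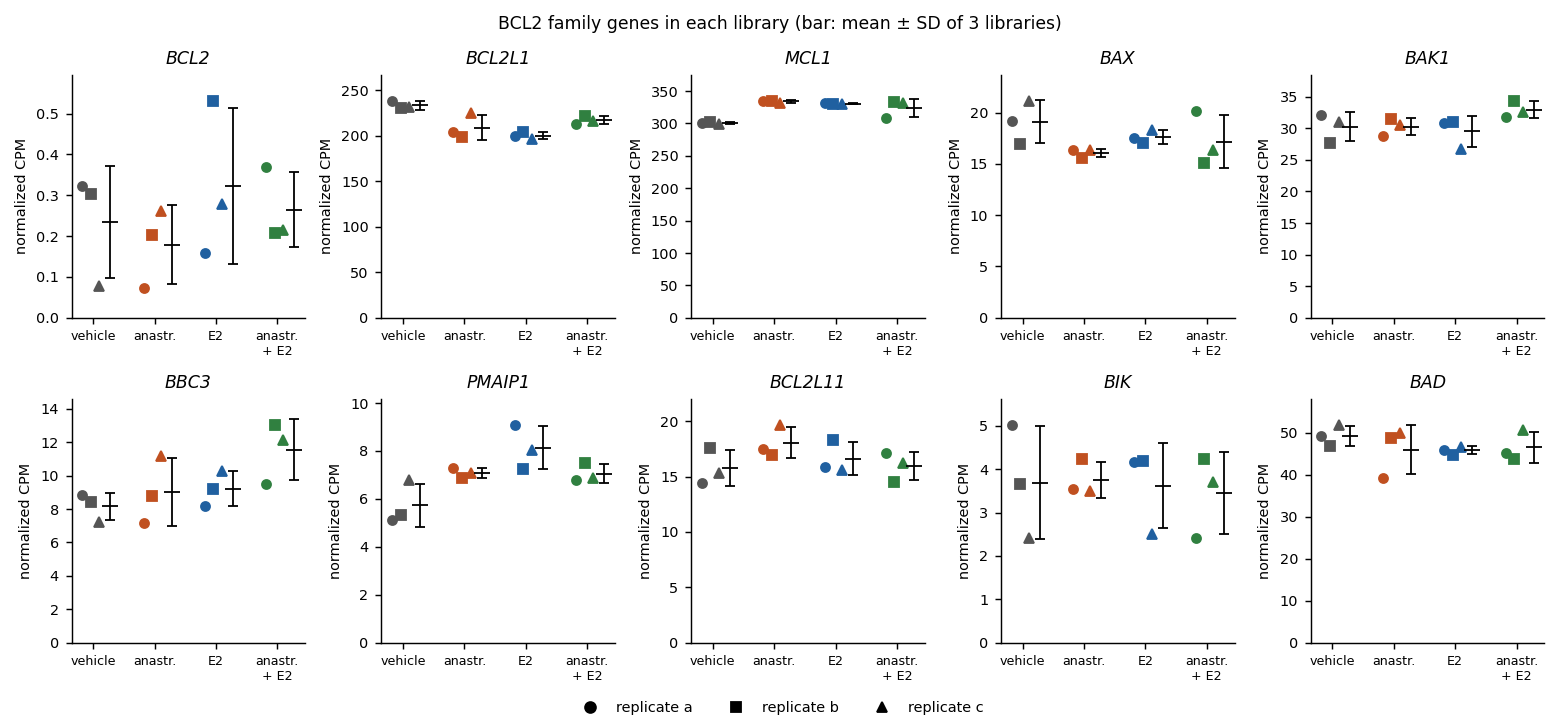
Normalized CPM of each of the 10 genes (vertical axes, from 0) in every library, by group (horizontal axes) and replicate letter (symbols), with the mean and SD of 3 libraries as a bar. For BCL2L1 the vehicle libraries (229.7 to 238 CPM) lie above all 9 treated libraries, and for MCL1 (299 to 302 CPM) below them.

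Promoter sequence was taken from RefSeq for the members called against vehicle. The table (GRCh38.p14) held 10 windows for 8 of the 10 members, and none for MCL1 and BIK. The 250 bases before each start were searched on both strands for the full palindromic estrogen response element, its short form GGTCA, the GC box GGGCGG, the E-box CACGTG and the TATA box TATAAA. A full element always holds the short form on both strands. Among 35116 windows, 0.0399% held the full element, 32.6% the short form, 42.6% a GC box, 6.34% an E-box and 10.7% a TATA box. No window of a member held the full element, which says only that these letters are not in the windows searched. BCL2L1's upstream window held 2 matches to TATAAA and its other window none of the motifs, while PMAIP1 held 4 GC boxes and BBC3 1 E-box. All of these are matches of letters, at any distance from the start. Of the members that were not called, BAX held 3 short forms, 4 E-boxes and 1 GC box, BCL2L11 3 GC boxes, BAK1 2 GC boxes, and each BAD window 1 short form and 1 GC box, while the BCL2 window held none of the motifs. The sequences shown are the upstream stretches that no annotated transcript holds, with motif matches in capitals.
BCL2L1 (chr20:31723990-31724213, minus strand): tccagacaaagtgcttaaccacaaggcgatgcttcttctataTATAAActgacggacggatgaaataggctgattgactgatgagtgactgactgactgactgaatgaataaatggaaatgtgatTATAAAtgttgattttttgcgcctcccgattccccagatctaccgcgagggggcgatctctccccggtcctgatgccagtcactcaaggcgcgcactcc
PMAIP1 (chr18:59899746-59899995, plus strand): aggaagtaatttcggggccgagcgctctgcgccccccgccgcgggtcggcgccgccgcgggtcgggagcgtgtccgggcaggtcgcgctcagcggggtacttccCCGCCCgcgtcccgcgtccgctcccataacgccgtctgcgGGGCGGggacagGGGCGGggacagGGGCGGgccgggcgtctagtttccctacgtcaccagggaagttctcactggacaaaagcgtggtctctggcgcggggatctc
BBC3 (chr19:47232767-47232917, minus strand): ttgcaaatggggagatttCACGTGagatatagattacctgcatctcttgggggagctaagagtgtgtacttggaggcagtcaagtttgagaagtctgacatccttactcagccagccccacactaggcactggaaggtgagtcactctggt

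BCL2L1, whose main product BCL-XL sequesters BAX, BAK and BH3-only proteins, lies at chr20:30252255-30311792 on the minus strand (GRCh37). Its level in vehicle was 238, 229.7 and 231 CPM in replicates a, b and c, and in anastrozole 204, 198 and 225 CPM. In E2 it was 199, 204 and 196 CPM, and in anastrozole plus E2 212, 221 and 216 CPM. Every treated library was below every vehicle library, E2 was lowest with no overlap with anastrozole plus E2, and anastrozole c was the treated library closest to vehicle.

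Group means were 233 ± 4.59 CPM in vehicle, 209 ± 14.1 in anastrozole, 199.9 ± 4.02 in E2 and 217 ± 4.50 in anastrozole plus E2 (SD, n = 3). Against vehicle, BCL2L1 fell by 0.22 on the log2 scale in E2 (SE 0.035, edgeR adjusted p = 4.45e-08). That call held in 6 of 6 fits with a library left out and in 8 of 8 other settings, the GC-corrected one included (log2 fold change -0.14, edgeR adjusted p = 0.000807). In anastrozole it fell by 0.16 (SE 0.046, edgeR adjusted p = 0.0232), and with the GC trend removed the log2 fold change was -0.083 (edgeR adjusted p = 0.237, within a range of 0.00368 to 0.237 over 8 settings of edgeR, DESeq2 and limma-voom). The call was lost without vehicle a (edgeR adjusted p = 0.156), vehicle c (0.165), anastrozole a (0.165) or anastrozole b (0.337), and with filterByExpr (0.0601), DESeq2 (0.0802) and limma-voom (0.193). In anastrozole plus E2 the log2 fold change was -0.11 (SE 0.037, edgeR adjusted p = 0.0745), and -0.10 with the GC trend removed (edgeR adjusted p = 0.0388, within a range of 0.00606 to 0.149 over 8 settings of edgeR, DESeq2 and limma-voom).

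BCL2L1 also differed between treatments. Its level was higher in anastrozole plus E2 than in E2, by 0.12 on the log2 scale (SE 0.033, edgeR adjusted p = 0.0132), in all 3 libraries against all 3. With the GC trend removed the log2 difference was 0.036 and the groups overlapped (edgeR adjusted p = 0.816, within a range of 0.0138 to 0.868 over 8 settings of edgeR, DESeq2 and limma-voom). The call was also lost without E2 a (edgeR adjusted p = 0.0566), E2 c (0.101) or anastrozole plus E2 b (0.0937), with limma-voom (0.0683) and with all 12 libraries in the fit (0.0669). The interaction was 0.27 on the log2 scale (SE 0.056, edgeR adjusted p = 7.43e-05): anastrozole went with a log2 change of -0.16 without E2 and of 0.12 with it. With the GC trend removed the interaction was 0.12 (edgeR adjusted p = 0.166, within a range of 8.16e-05 to 0.166 over 7 settings of edgeR, DESeq2 and limma-voom). Exons of the long noncoding gene ABALON cover 41.3% of BCL2L1's exon bases on the opposite strand, and their reads cannot be told apart where counting ignored strand.

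MCL1, a short-lived antiapoptotic protein that binds BAK, BIM and NOXA, lies at chr1:150533371-150552214 on the minus strand (GRCh37). In vehicle its level was 301, 302 and 299 CPM in replicates a, b and c, and in anastrozole 335, 335 and 331 CPM. In E2 it was 331 CPM in all 3 libraries, and in anastrozole plus E2 308, 332 and 331 CPM. All treated libraries were above all vehicle libraries, and anastrozole plus E2 a was the treated library closest to vehicle.

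Group means of MCL1 were 301 ± 1.46 CPM in vehicle, 334 ± 2.13 in anastrozole, 331 ± 0.180 in E2 and 324 ± 13.8 in anastrozole plus E2 (SD, n = 3). The SDs in vehicle, anastrozole and E2 lay below what sampling alone gives at 3317 to 5597 reads per library, and do not measure precision. In E2 MCL1 rose by 0.14 on the log2 scale (SE 0.033, edgeR adjusted p = 0.00102), a call that held in 6 of 6 fits with a library left out and in 8 of 8 other settings (log2 fold change 0.10 with the GC trend removed, edgeR adjusted p = 0.00937). In anastrozole it rose by 0.15 (SE 0.044, edgeR adjusted p = 0.0277), and by 0.12 with the GC trend removed (edgeR adjusted p = 0.0153, within a range of 0.00421 to 0.0942 over 8 settings of edgeR, DESeq2 and limma-voom). The anastrozole call was lost without vehicle a (edgeR adjusted p = 0.103), vehicle b (0.0620), vehicle c (0.230), anastrozole a (0.102) or anastrozole b (0.173), and with limma-voom (0.0942). In anastrozole plus E2 the log2 fold change was 0.10 (SE 0.035, edgeR adjusted p = 0.0587), and it passed with the GC trend removed (0.098, edgeR adjusted p = 0.0348, within a range of 0.00247 to 0.208 over 8 settings of edgeR, DESeq2 and limma-voom) and without anastrozole plus E2 a (0.14, edgeR adjusted p = 0.00584).

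For MCL1 the anastrozole effect was 0.15 without E2 and -0.031 with E2 on the log2 scale, an interaction of -0.18 (SE 0.053, edgeR adjusted p = 0.0112). It was -0.12 with the GC trend removed (edgeR adjusted p = 0.118, within a range of 0.00741 to 0.118 over 7 settings of edgeR, DESeq2 and limma-voom) and lost its call without anastrozole plus E2 a (-0.15, edgeR adjusted p = 0.0597).

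The ratio of MCL1 to BCL2L1 reads does not depend on how libraries are scaled. It was 1.26, 1.32 and 1.29 in vehicle a, b and c, and 1.64, 1.69 and 1.47 in anastrozole. In E2 it was 1.66, 1.62 and 1.68, and in anastrozole plus E2 it was 1.45 in a and 1.53 in c, with b between them. Every treated library had a higher ratio than every vehicle library. This follows from the levels above, where each of the 2 genes already separated treated from vehicle libraries. The ratio and its test therefore add no separate evidence. The mean log2 ratio was above vehicle by 0.31 in anastrozole, 0.36 in E2 and 0.21 in anastrozole plus E2. The exact permutation test, two-sided, gave p = 0.1 in each, the smallest that 3 against 3 allows, and 0.2 after Benjamini-Hochberg adjustment over 6 ratio comparisons. With the GC trend removed the differences in log2 ratio were 0.21, 0.24 and 0.20, each with an exact permutation p of 0.1.

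**Figure D3:**
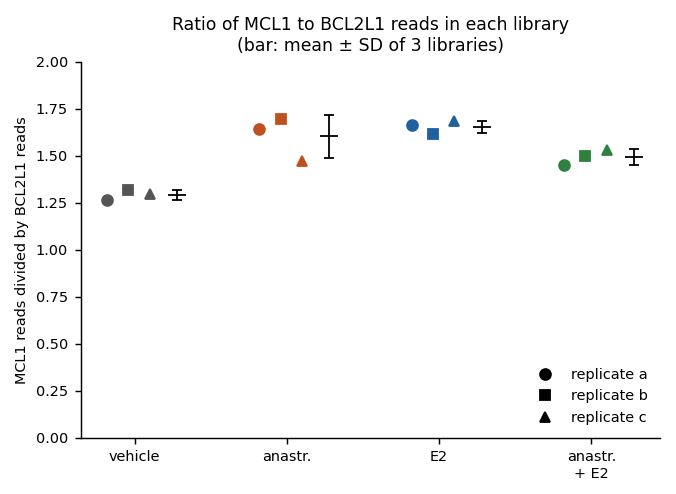
MCL1 reads divided by BCL2L1 reads (vertical axis, from 0) in every library by group and replicate letter, with the mean and SD of 3 libraries as a bar. Vehicle lies at 1.26 to 1.32, and all 9 treated libraries lie at 1.45 to 1.69.

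BCL2, the antiapoptotic founder of the family, lies at chr18:60790579-60987361 on the minus strand (GRCh37) and was close to absent from these libraries. It had 4, 4 and 1 reads in vehicle a, b and c, and 1, 2 and 3 reads in anastrozole. In E2 it had 2, 9 and 4 reads, and in anastrozole plus E2 6, 3 and 3 reads, 42 reads in all 12 libraries. All groups overlapped, and the highest count, in E2 b, stood beside 2 and 4 reads in the other E2 libraries. Pooled over each group, the level was 0.235 CPM in vehicle (95% Poisson interval 0.107 to 0.445), 0.170 in anastrozole (0.0625 to 0.371), 0.341 in E2 (0.191 to 0.562) and 0.269 in anastrozole plus E2 (0.139 to 0.470). These intervals cover counting error only and overlap each other, so a difference in BCL2 was not detectable at this depth. The ratio of BAX to BCL2 reads, often used as an index of the balance between the effector and its inhibitor, ranged from 32 to 272 over the libraries and rests on these few BCL2 reads. Its mean log2 value differed from vehicle by 0.091 in anastrozole, -0.65 in E2 and -0.53 in anastrozole plus E2, with exact permutation p of 0.8, 0.7 and 0.8.

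BAX and BAK1 encode the effectors that form the pores in the outer mitochondrial membrane, and neither was called in any comparison. BAX lies at chr19:49458072-49465055 on the plus strand and BAK1 at chr6:33540324-33548070 on the minus strand (GRCh37). BAX was at 19.2, 17.0 and 21.2 CPM in vehicle a, b and c, and at 16.3, 15.6 and 16.3 CPM in anastrozole. All 3 anastrozole libraries were below all 3 vehicle libraries, but by a log2 fold change of -0.25 (SE 0.10) with an edgeR adjusted p of 0.183, and the groups overlapped once the GC trend was removed. In E2 BAX was between 17.0 and 18.3 CPM, and in anastrozole plus E2 between 15.1 and 20.1 CPM, both overlapping vehicle. BAK1 had means of 30.3 ± 2.31 CPM in vehicle, 30.3 ± 1.39 in anastrozole, 29.5 ± 2.42 in E2 and 32.9 ± 1.31 in anastrozole plus E2 (SD, n = 3), and each treated group overlapped vehicle. Once the GC trend was removed, anastrozole plus E2 no longer overlapped vehicle (anastrozole plus E2 a 30.7 and vehicle a 30.6 CPM). Anastrozole plus E2 also lay above all E2 and all anastrozole libraries, but overlapped both once the GC trend was removed. Its log2 fold change against vehicle was -0.0038 in anastrozole (95% interval -0.16 to 0.16), -0.034 in E2 (-0.17 to 0.10) and 0.12 in anastrozole plus E2 (-0.016 to 0.26). These intervals bound a change in BAK1, and do not show that there was none.

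Among the BH3-only genes, BBC3 and PMAIP1 had a call. BBC3 encodes PUMA, a p53 target that binds every antiapoptotic member, and lies at chr19:47724079-47736023 on the minus strand (GRCh37). It was at 8.82, 8.44 and 7.23 CPM in vehicle a, b and c, and at 9.50, 13.0 and 12.2 CPM in anastrozole plus E2. In anastrozole it was at 7.14, 8.79 and 11.2 CPM, and in E2 at 8.20, 9.22 and 10.3 CPM. The combination was above vehicle in all 3 libraries, while anastrozole and E2 alone overlapped vehicle. Once the GC trend was removed, E2 no longer overlapped vehicle, and the log2 fold change went from 0.18 to 0.32 in E2 (edgeR adjusted p = 0.431 and 0.0997) and from 0.13 to 0.26 in anastrozole (edgeR adjusted p = 0.724 and 0.366). BBC3 rose by 0.49 on the log2 scale in anastrozole plus E2 against vehicle (SE 0.11, 1.41-fold, edgeR adjusted p = 0.000926), and by 0.50 with the GC trend removed (edgeR adjusted p = 0.000520, within a range of 0.000397 to 0.183 over 8 settings of edgeR, DESeq2 and limma-voom). The call was lost without anastrozole plus E2 b (0.40, edgeR adjusted p = 0.0603), with DESeq2 (0.0841) and with limma-voom (0.183).

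Whether BBC3 was higher in the combination than in either single treatment was tested directly. Against E2 the log2 difference was 0.31 (SE 0.11, edgeR adjusted p = 0.0630), and 0.18 with the GC trend removed (edgeR adjusted p = 0.661, within a range of 0.0480 to 0.661 over the settings that gave a value). With a library left out it ran from 0.22 without anastrozole plus E2 b (edgeR adjusted p = 0.395) to 0.44 without anastrozole plus E2 a (0.0107), and it passed in 2 of 6 such fits, the other without E2 c (0.39, 0.0439). Against anastrozole it was 0.36 (SE 0.12, edgeR adjusted p = 0.0819), and 0.24 with the GC trend removed (edgeR adjusted p = 0.428, within a range of 0.0596 to 0.428 over the settings that gave a value). With a library left out it ran from 0.19 without anastrozole a (edgeR adjusted p = 0.692) to 0.55 without anastrozole c (0.00228), and it passed in 2 of 6 such fits, the other without anastrozole plus E2 a (0.49, 0.0193). The interaction for BBC3 was 0.18 (95% interval -0.16 to 0.52, edgeR adjusted p = 0.627) and turned to -0.079 with the GC trend removed (edgeR adjusted p = 0.967), so its response to the combination was not shown to differ from the sum of the single responses.

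PMAIP1 encodes NOXA, which binds MCL1 selectively and promotes its turnover, and lies at chr18:57567228-57571537 on the plus strand (GRCh37). It was at 5.10, 5.32 and 6.77 CPM in vehicle a, b and c, and at 9.07, 7.27 and 8.05 CPM in E2. In anastrozole it was at 7.28, 6.87 and 7.07 CPM, and in anastrozole plus E2 at 6.79, 7.52 and 6.86 CPM. All 9 treated libraries were above all vehicle libraries, by the narrowest margin in anastrozole plus E2 a against vehicle c, and anastrozole overlapped vehicle once the GC trend was removed (anastrozole b 6.71 and vehicle c 6.95 CPM). PMAIP1 rose by 0.49 on the log2 scale in E2 (SE 0.14, 1.41-fold, edgeR adjusted p = 0.00676), and by 0.42 with the GC trend removed (edgeR adjusted p = 0.0407, within a range of 0.00725 to 0.0742 over the settings that gave a value). The call was lost without vehicle a (0.42, edgeR adjusted p = 0.0682) or E2 a (0.41, 0.0722) and with limma-voom (0.0742), and DESeq2 gave no adjusted p.

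In anastrozole the log2 fold change of PMAIP1 was 0.31 (SE 0.16, edgeR adjusted p = 0.325), and in anastrozole plus E2 it was 0.30 (SE 0.14, edgeR adjusted p = 0.270). Neither differed from E2 beyond the spread: the log2 difference from E2 was -0.18 in anastrozole (95% interval -0.46 to 0.099) and -0.19 in anastrozole plus E2 (-0.44 to 0.058). The interaction for PMAIP1 was -0.50 (SE 0.20, edgeR adjusted p = 0.0882), and -0.36 with the GC trend removed (edgeR adjusted p = 0.442). It passed in 0 of 7 other settings of edgeR, DESeq2 and limma-voom and in 1 of 12 fits with a library left out, without vehicle c (-0.64, edgeR adjusted p = 0.0436), where the highest adjusted p was 0.239 without vehicle a.

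The other BH3-only genes had no call in any comparison. BCL2L11 encodes BIM, which can activate BAX and BAK directly, and lies at chr2:111876955-111926021 on the plus strand (GRCh37). It was at 14.4 to 17.6 CPM in vehicle, 17.0 to 19.6 in anastrozole, 15.6 to 18.3 in E2 and 14.5 to 17.1 in anastrozole plus E2, all overlapping. Its largest log2 fold change against vehicle was 0.19 in anastrozole (95% interval -0.0099 to 0.40, edgeR adjusted p = 0.368). Exons of MIR4435-2HG cover 10.8% of its exon bases on the opposite strand.

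BIK, which acts mainly at the endoplasmic reticulum and is known as an estrogen-repressed gene in breast cancer cells, lies at chr22:43506756-43525718 on the plus strand (GRCh37). It was at 2.41 to 5.01 CPM in vehicle and at 2.50 to 4.19 CPM in E2, with a log2 fold change of -0.018 (95% interval -0.39 to 0.35). In anastrozole it was at 3.49 to 4.24 CPM and in anastrozole plus E2 at 2.41 to 4.25 CPM, again across the vehicle range. At 31 to 71 reads per library, BIK had wider intervals than any other member but BCL2. BAD, a sensitizer that is switched off by phosphorylation downstream of AKT, lies at chr11:64037302-64052176 on the minus strand (GRCh37). It was at 46.9 to 51.7 CPM in vehicle and at 44.7 to 46.7 CPM in E2, below vehicle in all 3 libraries. That log2 fold change of -0.11 (SE 0.058) had an edgeR adjusted p of 0.255, and it was 0.036 with the GC trend removed. In anastrozole (46.0 ± 5.92 CPM, SD, n = 3) and anastrozole plus E2 (43.8 to 50.7 CPM) BAD overlapped vehicle. GPR137 on the opposite strand covers 23.7% of BAD's exon bases.

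**Figure D4:**
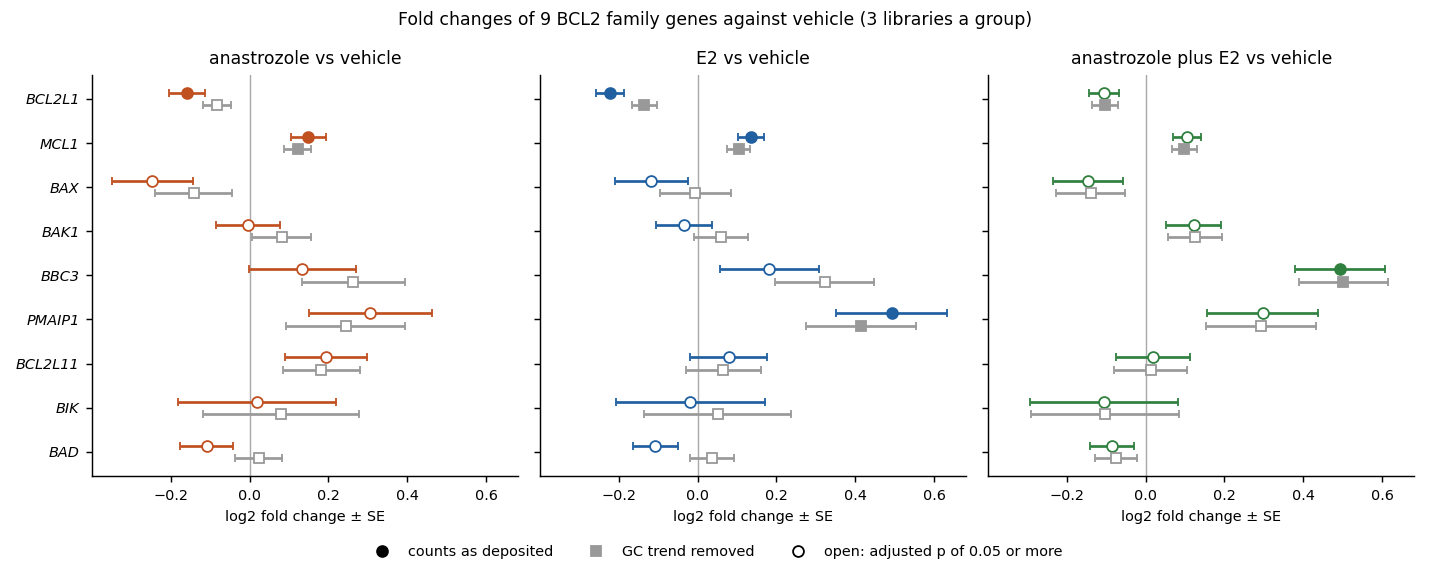
Log2 fold change against vehicle with its SE (horizontal axes) for 9 genes in 3 comparisons, from the counts as deposited (coloured circles) and with the GC trend removed (grey squares), filled where the adjusted p was under 0.05. BCL2L1 lies at -0.16, -0.22 and -0.11 and MCL1 at 0.15, 0.14 and 0.10 in anastrozole, E2 and the combination. BCL2 is left out because its reads were at the floor.

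Among the genes whose levels followed BCL2L1 most closely over the 12 libraries were VPS9D1 (Pearson's r 0.97) and BCL9L (0.95), of 6793 genes compared, and with the GC trend removed their r was 0.94 and 0.82. For MCL1 they were MAT2B (0.96), TRAPPC11 (0.95) and CSNK2A1 (0.94), with 0.63, 0.83 and 0.82 after the GC trend was removed. For BCL2 they were QSOX2 (0.88), PSPC1 (0.76) and ILK (0.75), at BCL2 counts too low to read. The libraries share groups, depth and GC trend, and these coefficients are descriptions.

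The pathway around the family was read from 52 genes in 4 lists, of which 51 could be tested. Anastrozole against vehicle called 5 of 51 (5 rose), E2 against vehicle 13 (12 rose and 1 fell) and anastrozole plus E2 against vehicle 10 (8 rose and 2 fell), beside the shares of all genes given above (3.67%, 12.0% and 5.04%). Those shares include genes of few reads. With filterByExpr, which removes such genes, 4, 13 and 9 list genes were called, beside 419 of 14594, 2602 of 14579 and 911 of 14700 genes. With a library left out the list counts ran from 1 (without vehicle c) to 9 (without anastrozole c) in anastrozole, with 2 without anastrozole a or b and 3 without vehicle a. They ran from 8 (without vehicle c) to 12 in E2 and from 7 (without vehicle c) to 11 in anastrozole plus E2. The median log2 fold change over the lists was 0.018, 0.031 and 0.028, beside 0 for all genes tested. With the GC trend removed, 3, 12 and 11 genes were called, with DESeq2 3, 9 and 7, and with limma-voom 0, 8 and 5.

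In the list of the apoptosome, caspases and their inhibitors, 2 of 18 genes were called in anastrozole, 7 in E2 (6 rose and 1 fell) and 4 in anastrozole plus E2 (2 rose and 2 fell). BIRC3, which encodes cIAP2, an inhibitor of apoptosis protein and ubiquitin ligase of TNF signalling, was at 27.3, 28.3 and 23.3 CPM in vehicle a, b and c. It was at 37.3, 37.2 and 30.2 CPM in anastrozole, at 43.8, 44.4 and 45.4 CPM in E2, and at 41.8, 45.4 and 38.0 CPM in anastrozole plus E2. All treated libraries were above all vehicle libraries, and E2 was above anastrozole in every library. BIRC3 rose by 0.41 on the log2 scale in anastrozole (SE 0.082, edgeR adjusted p = 0.000189), by 0.76 in E2 (SE 0.066, edgeR adjusted p = 9.06e-28) and by 0.67 in anastrozole plus E2 (SE 0.068, edgeR adjusted p = 2.81e-19). Anastrozole was below E2 by a log2 difference of -0.35 (edgeR adjusted p = 0.000652), which was lost with limma-voom (0.132). The call of anastrozole against vehicle was lost without vehicle c (0.33, edgeR adjusted p = 0.0573) and with limma-voom (0.155), and DESeq2 gave no adjusted p.

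CYCS, which encodes cytochrome c, was at 218, 235 and 224 CPM in vehicle a, b and c, and at 275, 259 and 276 CPM in E2, with no overlap. It rose by 0.26 in E2 (SE 0.035, edgeR adjusted p = 1.75e-11), and in anastrozole it was below E2 by a log2 difference of -0.21 (SE 0.040, edgeR adjusted p = 4.41e-05, and 0.0815 with limma-voom). VDAC1 and VDAC2, channels of the outer mitochondrial membrane, rose in E2 by 0.16 and 0.15 (edgeR adjusted p = 5.28e-05 and 0.000202), and VDAC1 rose by 0.14 in anastrozole plus E2 (edgeR adjusted p = 0.00230), a call lost without vehicle c (0.12, edgeR adjusted p = 0.0941). BIRC2, which encodes cIAP1, rose by 0.16 in anastrozole and 0.17 in E2 (edgeR adjusted p = 0.0278 and 0.000283), and with the GC trend removed by 0.097 and 0.085 (edgeR adjusted p = 0.171 and 0.123). AIFM1, a mitochondrial flavoprotein, fell by 0.21 in anastrozole plus E2 (edgeR adjusted p = 0.00699), a call lost without anastrozole plus E2 b (-0.18, edgeR adjusted p = 0.131), with DESeq2 (0.0975) and with limma-voom (0.0689). ENDOG, a mitochondrial nuclease named after its values were seen, fell in E2 by 0.27 (edgeR adjusted p = 0.00572), and the value was -0.098 with the GC trend removed (edgeR adjusted p = 0.542).

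Among other BCL2 family and related genes, 2 of 12 tested were called against vehicle in each treatment, in every case BNIP3 and BNIP3L, BH3-like proteins best known as receptors for mitophagy. BNIP3 had group means of 477 ± 9.05 CPM in vehicle, 531 ± 14.1 in anastrozole, 542 ± 17.8 in E2 and 539.8 ± 4.85 in anastrozole plus E2 (SD, n = 3), with no treated library in the vehicle range. It rose by 0.15, 0.18 and 0.18 on the log2 scale (edgeR adjusted p = 0.0144, 1.80e-07 and 8.35e-06). BNIP3L rose by 0.17, 0.25 and 0.14 (edgeR adjusted p = 0.00961, 5.41e-11 and 0.00337). With the GC trend removed its log2 fold change was 0.10 in anastrozole, which was not called (edgeR adjusted p = 0.0701), and 0.16 in E2. In anastrozole, limma-voom called neither BNIP3 (adjusted p = 0.106) nor BNIP3L (0.140). BCL2A1 (0 to 2 reads), BCL2L10 (0), BCL2L14 (0 to 5) and BCL2L15 (0 to 4) were at or near the floor in all libraries.

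Among 9 regulators of the family, 1 rose in anastrozole, 2 in E2 and 3 in anastrozole plus E2. DDIT3, the stress-induced transcription factor CHOP that can raise BIM and lower BCL2, was at 44.9, 48.7 and 49.5 CPM in vehicle a, b and c. It was at 62.2, 59.8 and 57.2 CPM in anastrozole, at 59.3, 60.5 and 64.4 CPM in E2, and at 60.7, 56.5 and 61.1 CPM in anastrozole plus E2. The treated groups lay above vehicle and overlapped each other. DDIT3 rose by 0.33 (SE 0.065), 0.36 (SE 0.055) and 0.32 (SE 0.054) on the log2 scale (edgeR adjusted p = 0.000140, 4.80e-09 and 7.59e-07), in 6 of 6 fits with a library left out in each comparison. FOXO3, a transcription factor for BIM and PUMA genes, rose by 0.23 in anastrozole plus E2 (edgeR adjusted p = 0.000188), and CDKN1A, a p53 target that encodes the cell cycle inhibitor p21, by 0.17 (edgeR adjusted p = 0.00324). With limma-voom both were lost (adjusted p = 0.102 and 0.0626), as was DDIT3 in anastrozole (0.0825).

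In the death receptor list, 0 of 12 genes were called in anastrozole by edgeR, DESeq2 and limma-voom, with 1 at an unadjusted edgeR p under 0.05. DESeq2 gave an adjusted p to 6928 genes in that comparison, which need not include all 12. In E2 2 were called and in anastrozole plus E2 1. Named after their values were seen, these were FAS and TNFRSF10B, which encode death receptors, in E2 and FAS in the combination. In the anastrozole comparison, leaving out vehicle c, anastrozole a or anastrozole b ended the calls of BNIP3, BNIP3L and BIRC2. So did vehicle a for BNIP3L and BIRC2, and vehicle b for BNIP3, with edgeR adjusted p between 0.0632 and 0.338 in these fits.

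**Figure D5:**
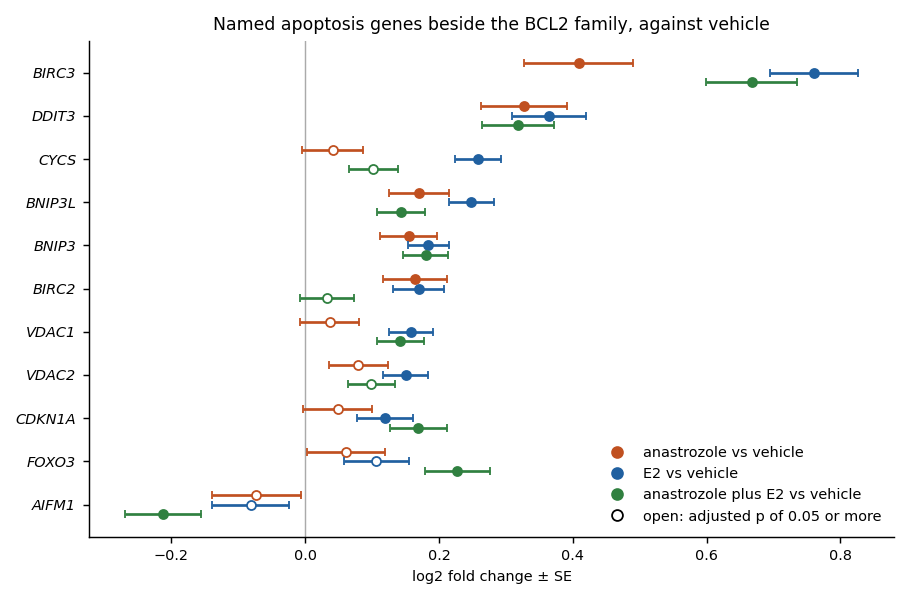
Log2 fold change against vehicle with its SE (horizontal axis) for 11 genes of the pathway lists in anastrozole, E2 and the combination (colours), filled where the adjusted p was under 0.05. BIRC3 lies furthest to the right, at 0.41, 0.76 and 0.67, and AIFM1 in the combination furthest to the left, at -0.21.

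Between treatments, the lists gave 2 of 51 calls in anastrozole against E2 (BIRC3 and CYCS, both lower), 7 in anastrozole plus E2 against E2 (1 higher and 6 lower), and 5 in anastrozole plus E2 against anastrozole (3 higher and 2 lower), beside 1.33%, 6.74% and 2.90% of all genes. With the GC trend removed the list counts were 5, 1 and 6, with DESeq2 2, 4 and 1, and with limma-voom 0, 1 and 0. With a library left out they ran from 2 to 4 (without anastrozole a), from 3 (without E2 a or E2 c, and 4 without anastrozole plus E2 b) to 6, and from 2 (without anastrozole a or anastrozole plus E2 b, and 3 without anastrozole b or anastrozole plus E2 c) to 9 (without anastrozole c). BIRC6, a large ubiquitin ligase that inhibits caspases, was lower in the combination than in E2 by a log2 difference of -0.20 (SE 0.034, edgeR adjusted p = 2.12e-06) and lower than in anastrozole by -0.22 (SE 0.043, edgeR adjusted p = 6.75e-05). Both calls held in 6 of 6 fits with a library left out and with the GC trend removed (-0.14 and -0.17), and both were lost with limma-voom (adjusted p = 0.0609 and 0.116). BIRC6 was the only gene of the lists still called in anastrozole plus E2 against E2 with the GC trend removed. CYCS, BIRC2, BNIP3L and ENDOG were also called, and each was lost in at least 1 fit with a library left out: E2 a, E2 c or any of the anastrozole plus E2 libraries (edgeR adjusted p between 0.0511 and 0.226).

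BOK, a family member that can form pores on its own, was higher in anastrozole plus E2 than in anastrozole by 0.35 (SE 0.072, edgeR adjusted p = 0.000244), and by 0.22 with the GC trend removed (edgeR adjusted p = 0.0413). Without anastrozole a the difference was 0.26 (edgeR adjusted p = 0.0592). BID, the BH3-only substrate of caspase 8, was higher by 0.26 (edgeR adjusted p = 0.0411), and 0.23 with the GC trend removed (edgeR adjusted p = 0.0796). It was called in 1 of 6 fits with a library left out. The interaction called 12 of 51 list genes (4 above and 8 below 0), beside 10.9% of all genes, and 5 with the GC trend removed, beside 565 of 21132 genes.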

How the data were processed

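Alignment by the authors used TopHat2 (2.0.14) and Bowtie2 (2.2.6) against hg19, and their count table came from htseq-count. They deposited whole-number counts per gene symbol, without normalization. The htseq-count version, strand setting and gene annotation are not given in the sources used here. The labels give polyA RNA as the molecule and a kit used on total RNA. Genes took 32.7% to 33.5% of the reads per library, no feature took a median of 59.4%, and 6.60% to 7.40% aligned to more than 1 place. These lines were left out of library sizes.

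From the counts, 4238 genes at 0 in all 12 libraries were removed and 21132 were tested. For every pair of groups, edgeR (4.0.16, under R 4.3.3) was run on the 6 libraries concerned (TMM, robust quasi-likelihood F test, Benjamini-Hochberg over all genes tested, threshold 0.05, two-sided), and the interaction on all 12. SE is the absolute log2 fold change over the square root of F. The fit was tested on simulated data. Members and lists were chosen with earlier results of these data known. From the lists, called genes could be named, at most 8 of lowest adjusted p per comparison, and genes at the floor. The genes most like BCL2L1, MCL1 and BCL2 were taken from the 3 of highest r among genes of at least 5 log2 CPM.

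Alternatives were DESeq2's size factors, filterByExpr, DESeq2 1.42.0, limma-voom (limma 3.58.1), a replicate block, a GC offset (lowess, span 0.5, on genes of at least 3 log2 CPM) with and without the block, all 12 libraries, and each library left out. Positions, exon lengths and GC come from GENCODE on GRCh37, where 21539 genes were found under their symbol, 1484 under a former symbol and 2347 not at all. Depth limits PMAIP1, BBC3 and BIK most among members above the floor.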

Additional observations from a re-analysis of the deposited data

Results flagged for a closer look

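Members and list genes were looked at again where the effect of anastrozole differed with and without E2 by a test of the difference itself, the interaction in edgeR on 12 libraries. It was 0.27 on the log2 scale for BCL2L1 and -0.18 for MCL1. Among list genes it was -0.30 for BIRC2, -0.50 for BIRC3, -0.32 for BIRC6, -0.28 for BNIP3L, -0.20 for CYCS and -0.37 for DDIT3, and above 0 for BOK (0.34) and ENDOG (0.45). Without E2, anastrozole went with log2 changes of -0.16 in BCL2L1, 0.15 in MCL1, 0.41 in BIRC3 and 0.33 in DDIT3.

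Interaction values followed GC content across genes (Spearman's rho 0.71), and the part of that trend in these results was not tested beyond refitting with it removed. The values were then 0.12 for BCL2L1, -0.12 for MCL1, -0.15 for BIRC2, -0.12 for BNIP3L, -0.091 for CYCS, 0.055 for BOK and 0.14 for ENDOG, none of them called (edgeR adjusted p between 0.0818 and 0.921). BIRC6 (-0.21, edgeR adjusted p = 0.00212), BIRC3 (-0.32, edgeR adjusted p = 0.0322) and DDIT3 (-0.37, edgeR adjusted p = 0.000132) were still called. With the counts as deposited, calls were lost with 1 library left out for MCL1 (without anastrozole plus E2 a, edgeR adjusted p = 0.0597), BOK (without vehicle c, 0.108, or anastrozole a, 0.120), CYCS (without anastrozole plus E2 c, 0.100) and ENDOG (without anastrozole a, 0.0573). BOK and CYCS also lost their calls with limma-voom (adjusted p = 0.0684 and 0.0669).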

How the results depend on the processing

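Of the members' log2 fold changes under the alternatives, 938 kept their side of the threshold and their direction (or, uncalled, crossed 0 by under 1 SE), 38 uncalled values crossed 0 by more, 34 lost and 13 gained a call, and no call turned direction. Values to which DESeq2 gave no adjusted p were counted as uncalled. PMAIP1 in E2 against vehicle is for that reason among the 34 with DESeq2. Anastrozole against vehicle had 2 members called, 1 with filterByExpr, DESeq2, the GC trend removed or that with the replicate block, 0 with limma-voom, and 0 to 2 with a library left out. Anastrozole plus E2 against vehicle had 1, 0 with DESeq2 and limma-voom, 3 with the replicate block, 3 with the GC trend removed, with or without the replicate block, and 0 to 2 with a library left out. Anastrozole plus E2 against E2 had 1, 0 with limma-voom, the GC trend removed (also with the replicate block) or all 12 libraries, 2 with the replicate block, and 0 to 2 with a library left out. Anastrozole plus E2 against anastrozole had 0, and 0 to 1 with a library left out. The interaction had 2, 0 with the GC trend removed, with or without the replicate block, and 1 to 3 with a library left out. E2 against vehicle had 3, 2 with DESeq2 or limma-voom, and 2 (without vehicle a or E2 a) to 3 with a library left out. Apart from the GC trend, whose offset follows from its construction, the cause of these moves was not tested.

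Libraries with the same letter had deviations from their group means that correlated at r from -0.14 to 0.32, and in no comparison were all 3 pairs over 0.1. With the replicate block BCL2L1 and MCL1 were called in the combination against vehicle (edgeR adjusted p = 0.0105 and 0.00393) and BBC3 against E2 (edgeR adjusted p = 0.0480). The log2 ratio of BAX to BCL2 turned direction with a library left out, from -0.48 to 0.84 in anastrozole, -1.07 to 0.10 in E2 and -0.93 to 0.22 in the combination, against 1 to 9 BCL2 reads. That of MCL1 to BCL2L1 was above vehicle in every setting run. A floor of 3 reads and 3 libraries a group limit all low genes.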
